A study of Ceratopteris richardii with 15 samples.

Results

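Leaf tips and shoot tips of the fern Ceratopteris richardii were set against each other in 6 RNA sequencing libraries, 3 of leaf tip and 3 of shoot tip, out of 15 libraries in the series. The 2 groups were of the same genotype, wild type RNWT1, and the same age: both tissues were cut from sporophytes that had grown from spores on half-strength MS medium to 50 days, and frozen for extraction of total RNA. The other 9 libraries, 3 each of leaf without its tip (leaf below), root tip, and root without its tip (root below), came from plants of the same genotype and age. They are used only to place the genes that differed between the tips. The labels give neither the length of tissue taken as a tip nor whether libraries came from separate plants, so p-values measure the spread between these libraries, which may be technical.

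Genes were kept when they reached a level of 1 TPM in at least 3 of the 6 libraries, which left 33689 of the 88641 genes in the deposited table. At the edge of this rule, 3197 genes reached 1 TPM in exactly 3 libraries and entered, and 2400 reached it in 2 libraries and did not. TPM expresses a transcript's share of its library after correction for its length, and every library has the same total, so the depth behind each value is unknown. A gene was called when its Benjamini-Hochberg adjusted p in limma was under 0.05 and its difference in log2(TPM + 1) was at least 1, which is 2-fold on that scale. Identifiers in the table are those of the Trinity assembler, which builds transcripts from reads without a genome. None of them, a count of 0, was found in a reference table of 36816 Ceratopteris genes, so no gene has a name, a position or a known role here, and the tissue labels could not be checked against marker genes.

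Fern organs grow from apical cells. The shoot apical cell gives rise to the stem and, at its flanks, to leaf primordia, and each leaf then extends from an apical region of its own at its tip. Roots of ferns are largely shoot-borne, arising along the stem and near the leaf bases. The comparison asks how the transcripts of a growing leaf end differ from those of the apex that carries the plant's shoot.

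The 6 libraries fell into their 2 tissues. Across the tested genes, log2(TPM + 1) correlated at 0.992 to 0.994 within leaf tip and at 0.989 to 0.993 within shoot tip, while a leaf tip library correlated with a shoot tip library at 0.928 to 0.933. For abundant genes, those averaging at least 100 TPM, log2 ratios of paired libraries had an SD of 0.0401 to 0.0616 within leaf tip, against 0.0414 to 0.145 within shoot tip. These are correlations across genes, which are not independent replicates.

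Most genes were similar in the 2 tips, and the larger differences lay mostly on the side of the shoot tip. Of the 33689 genes, 901 rose in leaf tip relative to shoot tip (2.67%) and 2479 fell (7.36%), together 3380 genes or 10% of those tested. The adjusted p alone passed for 18714 genes, of which 8759 were higher and 9955 lower in leaf tip. For 19826 genes, 58.9% of those tested, the whole 95% confidence interval of the difference lay within 1.5-fold. The median difference over all tested genes was -0.0094 on the log2 scale. The central 50% of genes ran from -0.29 to 0.23, and the 5th and 95th percentiles were -1.28 and 0.76. All but 1 of the 901 and all but 5 of the 2479 had libraries of the 2 tips that did not overlap. Over all tested genes, libraries did not overlap for 9967 with leaf tip higher (29.6%) and 11014 with leaf tip lower (32.7%). The calls were made on these same libraries, so the separation of called genes adds no support. The number of calls moved with the pseudocount, the filter and the hypothesis tested: with a pseudocount of 5 in place of 1 there were 419 higher and 874 lower in leaf tip, with genes averaging under 5 TPM left out 625 and 1040, and when a difference beyond 2-fold was itself tested 469 and 1423.

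**Figure D1:**
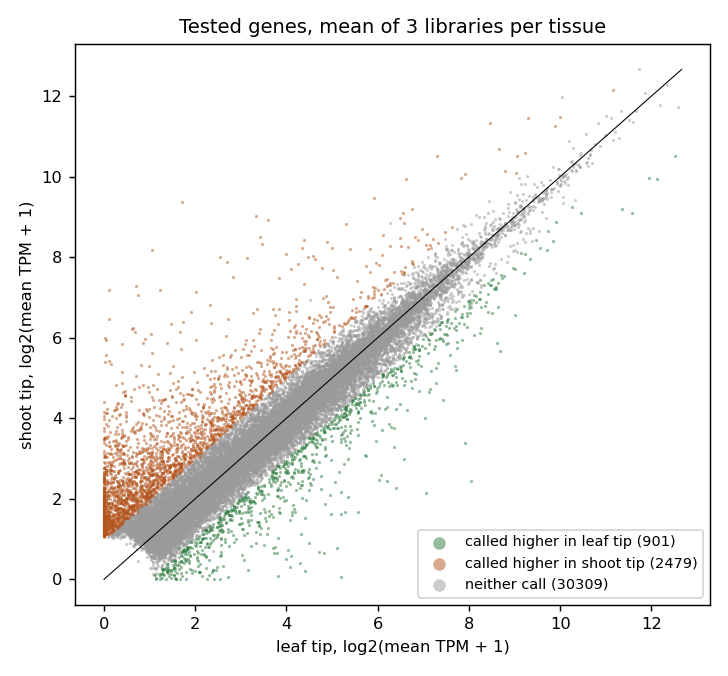
Mean level of each tested gene in leaf tip (x axis) and shoot tip (y axis), both as log2(mean TPM + 1), with a line where both are equal. The 901 genes called higher in leaf tip lie below the line, and the 2479 called higher in shoot tip lie above it and reach further from it, mostly where leaf tip is low.

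The genes that fell in leaf tip also fell by more. Of the genes higher in leaf tip, 779 (86.5%) differed by 2-fold to 4-fold, 122 by 4-fold or more and 33 by 8-fold or more, and their median log2 difference was 1.29. Of those higher in shoot tip, 1832 (73.9%) differed by 2-fold to 4-fold, 647 by 4-fold or more, 193 by 8-fold or more and 62 by 16-fold or more, with a median of -1.51. These sizes are on the log2(TPM + 1) scale and understate the change of low genes.

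The excess on the shoot tip side was seen at low and middle levels. Among the 7224 tested genes with a mean under 2 TPM over the 6 libraries, 1.67% were called higher in leaf tip and 10.7% higher in shoot tip. At such a mean, a 2-fold difference in TPM + 1 leaves the lower tip under about 1 TPM. These called genes were thus kept mostly through the tip where they were higher. How much the filter shaped their shares was not tested. At 5 to 20 TPM the shares were 2.64% and 6.32%, and at 20 to 100 TPM they were 2.90% and 3.57%. From 100 to 1000 TPM the order turned, with 108 of 1629 genes (6.63%) higher in leaf tip and 81 (4.97%) higher in shoot tip. Among the 72 genes averaging at least 1000 TPM, 5 were higher in leaf tip and 7 in shoot tip. The median standard error of the log2 difference was 0.143 under 2 TPM and 0.0197 at 100 to 1000 TPM, so the low genes were also the less precisely measured.

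**Figure D2:**
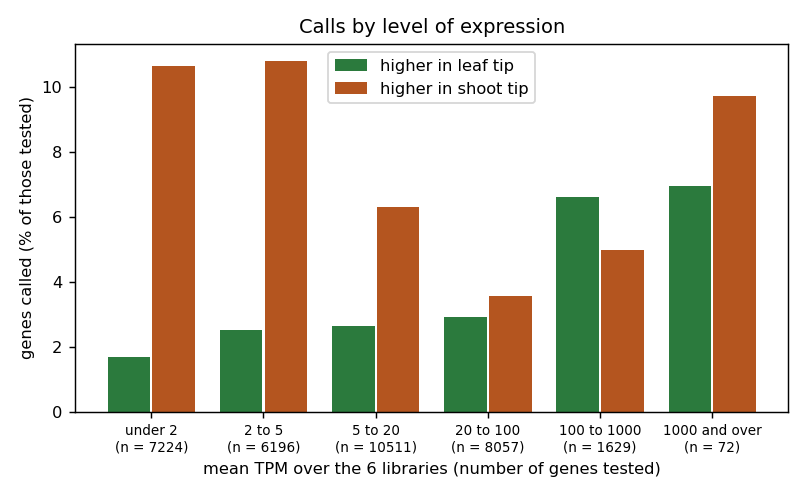
Share of tested genes called (y axis, percent, starting at 0) by mean TPM over the 6 libraries (x axis, with the number of genes tested), for genes higher in leaf tip and genes higher in shoot tip. The shoot tip share is 10.7% under 2 TPM and 4.97% at 100 to 1000 TPM, where the leaf tip share is 6.63%.

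The number of genes detected moved the same way. Leaf tip libraries held 32429, 32261 and 32023 genes at 1 TPM or more, against 33839, 34009 and 33425 in the shoot tip libraries. All 3 leaf tip values lay below all 3 shoot tip values. The means were 32238 ± 204 in leaf tip and 33758 ± 300 in the shoot tip libraries (SD, n = 3 each), a difference of -1520 genes with p = 0.1 by the two-sided exact permutation test, the smallest value that 3 against 3 libraries allow. At 10 TPM or more the difference was -338 genes, with 14907 ± 14.4 in leaf tip against 15245 ± 49.5 in the shoot tip libraries (SD, n = 3 each). At 100 TPM or more it had the opposite sign, with 1702 ± 7.02 in leaf tip against 1653 ± 11.7 in the shoot tip libraries.

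Genes listed at 0 throughout a tissue were nearly all on the leaf tip side. In all 3 shoot tip libraries 7 tested genes were listed at 0, and in all 3 leaf tip libraries 278 were. Such a gene was kept only if every library of the other tip reached 1 TPM, which fixes a log2 difference of at least 1, so that all of them were called follows largely from the filter and is no result. The 278 genes were low where they were found: their median level in shoot tip was 2.15 TPM and the highest was 20.1 TPM. Whether a listed 0 is a true low level or an estimate that failed is not known. Of the 278 genes, 224 stayed under 1 TPM on average in leaf, root tip and root as well, and 43 were listed at 0 in each of those 9 libraries. Root held 45 of them at 1 TPM or more, root tip 26 and leaf 9.

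The most abundant transcripts were largely shared. Of the 100 most abundant genes of leaf tip, 81 were also among the 100 most abundant of shoot tip, and of the 10 most abundant 6 were shared. At 1000 TPM or more in either tip there were 88 genes, of which 7 were called higher in leaf tip, 12 higher in shoot tip and 69 in neither direction. Over all tested genes the shares were 2.67%, 7.36% and 90.0%, so calls were more frequent among these 88 genes. The summed TPM difference rested on few genes on both sides. The 5 genes with the largest surplus made up 30.2% of the summed TPM difference of the 901 genes higher in leaf tip, and 33 genes (3.66% of the list) made up 50%. For the 2479 genes higher in shoot tip the 5 largest made up 16.7%, and 53 genes (2.14% of the list) made up 50%.

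The genes named here are, in each direction, the called gene with the most extreme log2 difference and the called gene with the largest difference in mean TPM, among those at 10 TPM or more in the higher tip. LA_TRINITY_DN5092_c0_g1 had 262.02, 266.76 and 263.06 TPM in leaf tip, against 4.82, 4.27 and 4.18 TPM in shoot tip. The ratio of the mean TPM values was 59.7 (log2 difference 5.61, SE 0.045, adjusted p = 9.9e-11 by limma). The same gene had 409.57 to 419.57 TPM in leaf and at most 0.13 TPM in any root tip or root library. Its level was thus high in leaf and leaf tip, low in shoot tip and near 0 in root tip and root, with a leaf minus root difference of 8.61 (SE 0.064, adjusted p = 5.5e-12 by limma in the 9 other libraries).

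SHA_TRINITY_DN2378_c0_g1 carried the largest surplus of the leaf tip. It had 5794.28, 5878.08 and 5850.45 TPM in leaf tip, against 1449.96, 1439.9 and 1455.53 TPM in shoot tip, a ratio of 4.03 (log2 difference 2.01, SE 0.0096, adjusted p = 1.4e-11 by limma). This gene alone made up 8.64% of the summed TPM difference of the genes higher in leaf tip. Leaf held still more of it, at 22468 ± 551 TPM, against 1267 ± 357 TPM in root (SD, n = 3 each). Root replicate 3 was the lowest of all 15 libraries for this gene, at 855.12 TPM, while the other root libraries had 1469.04 and 1476.37 TPM.

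In the opposite direction SHA_TRINITY_DN9182_c0_g1 had 2.39, 2.32 and 2.05 TPM in leaf tip, against 653.59, 652.28 and 669.23 TPM in shoot tip. The shoot tip mean was 292 times the leaf tip mean (log2 difference -7.66, SE 0.041, adjusted p = 1.8e-11 by limma). In a fit of all 15 libraries the same difference had an SE of 1.19 and an adjusted p of 0.00011 by limma. In that fit the spread of the other tissues enters, and root replicate 3 had 474.09 TPM of this gene where root replicates 1 and 2 had 4.59 and 4.28 TPM. Leaf had 0.31 to 0.41 TPM and root tip at most 0.15 TPM. The leaf minus root difference was -4.15 (SE 1.5, adjusted p = 0.036 by limma), and without root replicate 3 it was -2.00 (SE 0.086, adjusted p = 1.6e-07).

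LE_TRINITY_DN17701_c3_g1 had the largest difference in TPM on the shoot tip side and only just reached 2-fold. It had 2271.3, 2286.67 and 2298.92 TPM in leaf tip, against 4580.51, 4560.09 and 4580.15 TPM in shoot tip (log2 difference -1.0004, SE 0.0087, adjusted p = 1.2e-10 by limma). The groups were far apart relative to their spread, but the call was lost without leaf tip replicate 1, shoot tip replicate 1 or shoot tip replicate 3, where the difference was -0.996, -0.999 and -0.999. It was more abundant elsewhere, at 11672 ± 160 TPM in leaf and 14439 ± 83.2 TPM in root tip (SD, n = 3 each).

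**Figure D3:**
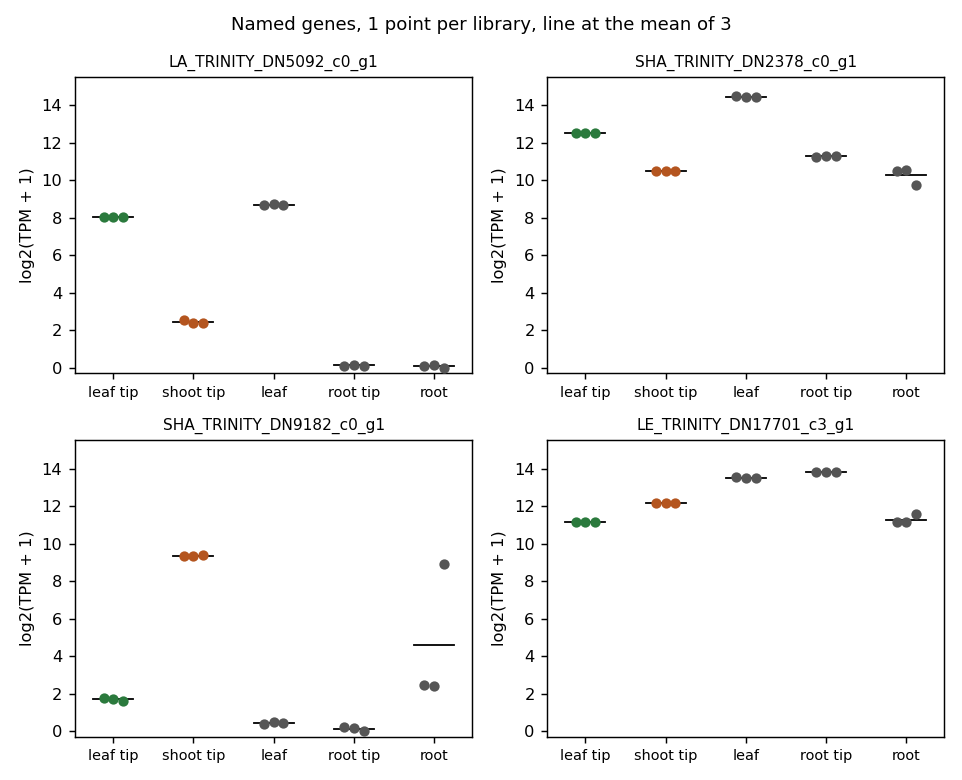
Level of the 4 named genes in all 15 libraries (y axis, log2(TPM + 1), 1 point per library, line at the mean of 3 libraries) by tissue (x axis). In SHA_TRINITY_DN9182_c0_g1 the root libraries part, with replicate 3 at 474.09 TPM and the others under 5 TPM.

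The genes higher in leaf tip were for the most part leaf genes. The 9 leaf, root tip and root libraries share no library with the tip comparison, and they were fitted on their own for the same 33689 genes. Of the 901 genes higher in leaf tip, 594 (65.9%) were called higher in leaf than in root, against 13% of all tested genes, and 44 (4.88%) were called lower, against 13.5% of all tested. Against root tip, 552 (61.3%) were higher in leaf, where 9.82% of all tested genes were. Their median leaf minus root difference was 2.01 on the log2 scale, and -0.16 over all tested genes. These 594 genes were 13.5% of the 4395 genes called higher in leaf than root, so most genes with the leaf pattern were not called between the tips.

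The genes higher in shoot tip were more often root genes than leaf genes, but less uniformly so. Of the 2479 genes, 1073 (43.3%) were called lower in leaf than in root and 309 (12.5%) higher, against 13.5% and 13% of all tested genes. Against root tip, 1057 (42.6%) were lower in leaf, where 23.3% of all tested genes were, and 343 (13.8%) were higher, where 9.82% of all tested were, so both directions were above the share of all tested genes. Their median leaf minus root difference was -0.68. The 1073 genes were 23.6% of the 4554 genes called lower in leaf than root. In the comparison of root tip with root, 608 of the 2479 (24.5%) were higher in root tip and 731 (29.5%) lower, against 20.2% and 9.02% of all tested genes. Of the 901 genes higher in leaf tip, 256 (28.4%) were higher in root tip and 95 (10.5%) lower.

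The split of leaf and root calls moved with scaling. After median-ratio scaling of the 9 libraries the median leaf minus root difference of all genes was 0.047 in place of -0.16, and the leaf minus root tip one -0.045 in place of -0.33. With it, 5638 genes were higher and 3190 lower in leaf than root, in place of 4395 and 4554. Against root tip 4733 genes were then higher and 5088 lower in leaf, in place of 3307 and 7857. Under that scaling 68.7% of the genes higher in leaf tip were higher in leaf than root (16.7% of all tested), and 39.7% of the genes higher in shoot tip were lower in leaf than root (9.47% of all tested).

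**Figure D4:**
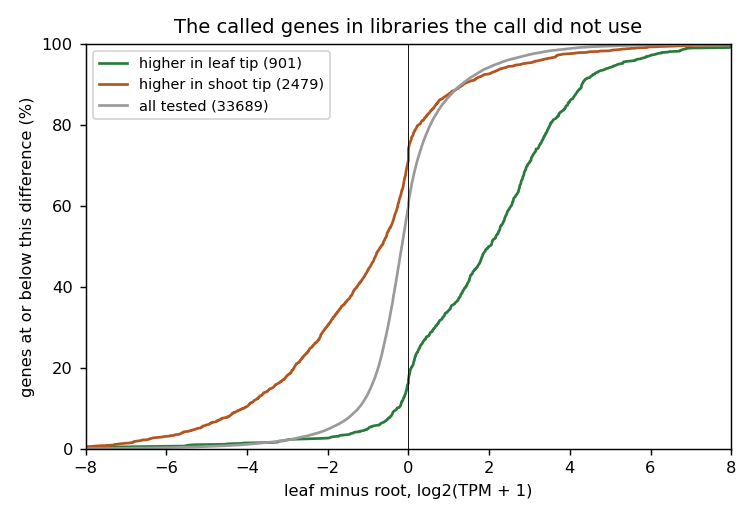
Cumulative share of genes (y axis, percent) by their leaf minus root difference in log2(TPM + 1) (x axis, shown from -8 to 8), in libraries that the tip comparison did not use. The curve of the 901 genes higher in leaf tip lies to the right, with a median of 2.01, and the median of the 2479 genes higher in shoot tip is -0.68, against -0.16 over all tested genes.

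These shares differed little with the size of the tip difference. Among genes higher in leaf tip, those called higher in leaf than root made up 65.6% at 2-fold to 4-fold, 69.7% at 4-fold to 8-fold and 63.6% of the 33 genes at 8-fold or more. Among genes higher in shoot tip, those called lower in leaf than root made up 42.1%, 46.3% and 47.2% of the same classes.

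Read from the other side, the tip difference followed the class a gene had in leaf, root tip and root. A gene that met several class definitions was counted only in the earliest of them, in the order of this paragraph. Of 2236 genes called higher in leaf than in both root and root tip, 505 (22.6%) were called higher in leaf tip and 170 (7.60%) higher in shoot tip, against 2.67% and 7.36% of all tested genes, so the second share was near that of all tested. Their median leaf tip minus shoot tip difference was 0.53, and between 0.53 and 0.55 in each of the 9 pairs of a leaf tip and a shoot tip library. Of 2277 genes higher in both root and root tip than in leaf, 21 (0.922%) were higher in leaf tip and 685 (30.1%) higher in shoot tip, with a median of -0.54. Genes higher in root than in both leaf and root tip were close to these, with 19 of 1399 (1.36%) higher in leaf tip, 339 (24.2%) higher in shoot tip and a median of -0.39. For the 3830 genes higher in root tip than in both leaf and root the median was -0.03, and 45 (1.17%) were higher in leaf tip and 340 (8.88%) in shoot tip, again near the 7.36% of all tested genes. Of 579 genes higher in leaf and root than in root tip, 31 (5.35%) were higher in leaf tip and 98 (16.9%) higher in shoot tip, with a median of -0.20. The 1217 genes higher in leaf and root tip than in root had 57 (4.68%) and 74 (6.08%), with a median of 0.13. A further 17242 genes with no call among leaf, root tip and root had a median of 0.013, with 171 (0.992%) higher in leaf tip and 601 (3.49%) higher in shoot tip.

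**Figure D5:**
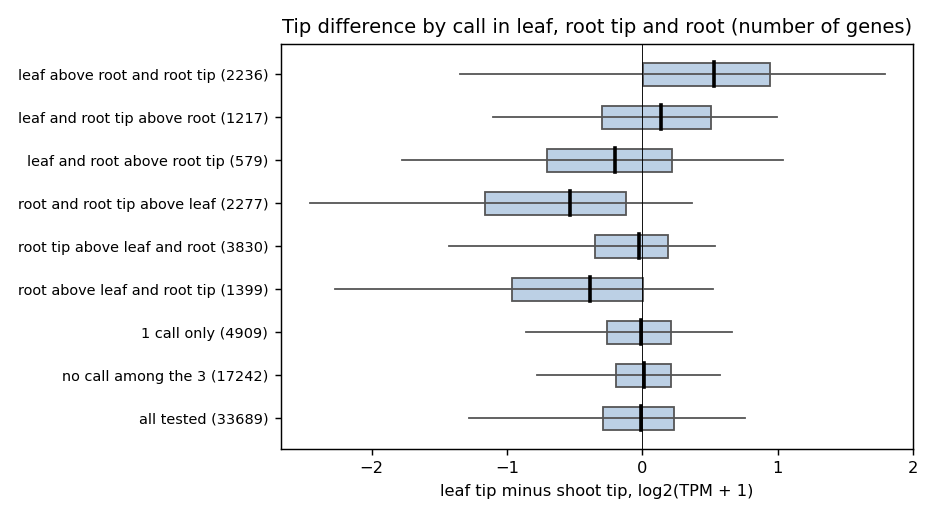
Leaf tip minus shoot tip difference in log2(TPM + 1) (x axis) for classes of genes called in the 9 other libraries (rows, with the number of genes). Boxes span the central 50% of genes, the heavy line is the median and thin lines run from the 5th to the 95th percentile. The median is 0.53 for genes higher in leaf than root and root tip and -0.54 for genes higher in root and root tip than leaf.

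The levels of the 2 gene groups can also be given in TPM. Their order between the tips is fixed by the call, and leaf, root tip and root are the libraries already used above. The median gene higher in leaf tip had 18.0 to 18.2 TPM in the leaf tip libraries and 5.18 to 5.27 TPM in the shoot tip libraries, with 16.7 to 17.2 TPM in leaf, 4.16 to 4.35 TPM in root tip and 2.57 to 2.95 TPM in root. Leaf tip was the highest of the 5 tissues for 433 of the 901 genes (48.1%, against 32.7% of all tested genes) and leaf for 394 (43.7%, against 11.3%). The call itself keeps the lower tip from being the highest. Over all tested genes that tip was highest for 21.6% (shoot tip) or 32.7% (leaf tip). The shares of all tested genes are therefore too low a measure for the other tissues. An excess over them may come wholly or partly from the call. The median gene higher in shoot tip had 0.96 to 0.97 TPM in leaf tip and 6.29 to 6.36 TPM in shoot tip, with 1.95 to 2.03 TPM in leaf, 7.73 to 7.81 TPM in root tip and 6.08 to 7.92 TPM in root. Shoot tip was the highest tissue for 863 of these 2479 genes (34.8%, against 21.6% of all tested genes) and root for 861 (34.7%, against 19.5%). Root tip was highest for 549 (22.1%, against 14.9%) and leaf for 206 (8.31%, against 11.3%).

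As a share of each library's summed TPM, the genes higher in leaf tip held 7.62% ± 0.026 of the leaf tip total and 2.54% ± 0.013 of the shoot tip total, and 23.5% ± 0.37 in leaf (SD, n = 3 each). The genes higher in shoot tip held 2.20% ± 0.0053 of the leaf tip total and 8.21% ± 0.020 of the shoot tip total, with 20.4% ± 1.25 in root, 11.6% ± 0.072 in root tip and 8.25% ± 0.032 in leaf (SD, n = 3 each). The order of the 2 tips in these shares is fixed by the call. In bulk tissue, fewer cells of a type and less RNA per cell cannot be told apart behind any of these levels.

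Some of the called genes were low in all 3 tissues outside the tips. Of the genes higher in leaf tip, 117 (13%) were under 1 TPM on average in leaf, root tip and root, and of those higher in shoot tip 400 (16.1%) were, against 10.9% of all tested genes. The share for leaf tip was thus near that of all tested genes. The median of the 117 was 2.97 TPM in leaf tip and 0.527 TPM in shoot tip, and 39 of them reached 1 TPM on average in shoot tip too. For the 400, 44 reached 1 TPM on average in leaf tip, where their median was 0, and the median in shoot tip was 2.32 TPM. Most genes of both groups were thus kept through the tip where they were higher. A low gene kept in that way is pushed towards a call. The excess of 16.1% over 10.9% may therefore come wholly or partly from the filter, which was not tested. At 10 TPM or more there were 24 in leaf tip, up to 81.1 TPM, and 36 in shoot tip, up to 452 TPM.

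Within root, replicate 3 departed from replicates 1 and 2, and it did so most often for genes that differed between the tips. Among genes averaging at least 10 TPM in root, replicate 3 was over 2-fold above both other root libraries for 9 of 295 genes higher in leaf tip (3.05%) and 120 of 1146 genes higher in shoot tip (10.5%), against 223 of all 12953 (1.72%). It was over 2-fold below both for 31 of the 295 (10.5%) and 29 of the 1146 (2.53%), against 197 of all (1.52%). The average of 10 TPM includes replicate 3, so genes such as SHA_TRINITY_DN9182_c0_g1 passed only through it. This raises the counts of genes where replicate 3 was above and lowers those where it was below, in the lists and over all genes. The size of this effect was not tested. Counted from the 223 genes, 9 (4.04%) were higher in leaf tip and 120 (53.8%) higher in shoot tip, and their median leaf tip minus shoot tip difference was -1.11. Of the 197 genes, 31 (15.7%) were higher in leaf tip and 29 (14.7%) higher in shoot tip. Over all 12953 genes these shares were 2.28% and 8.85%, with a median difference of -0.07. The part of this library in the root results was not tested further than by leaving it out. Without it, 64.7% of the genes higher in leaf tip were higher in leaf than root (13.2% of all tested) and 42.7% of those higher in shoot tip were lower (14.6% of all tested).

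The prefix of each identifier matches a tissue code of the columns, LA for leaf tip and SHA for shoot tip. For LA and SHA the prefix went with the direction of the call, but the lean to shoot tip was not particular to SHA. Of 9264 tested genes with the LA prefix, 406 (4.38%) were higher in leaf tip and 147 (1.59%) higher in shoot tip. Of 8282 with the SHA prefix, 104 (1.26%) were higher in leaf tip and 897 (10.8%) higher in shoot tip. For the leaf prefix LE these shares were 5.01% and 6.36% of 4435 genes, for the root tip prefix RT 1.55% and 9.05% of 5758, and for the root prefix RO 1.34% and 10.6% of 5950. Over all tested genes they were 2.67% and 7.36%. The shoot tip shares of RT and RO were thus above that of all tested genes too, and the RO share was close to the SHA share. The shoot tip excess was also present in the 16143 genes with neither tip's prefix, where 391 were higher in leaf tip and 1435 higher in shoot tip, so that 21.4% of these calls were higher in leaf tip, against 26.7% of all calls. Of the 117 genes under 1 TPM outside the tips, 98 (83.8%) had the LA prefix, against 45.1% of all genes higher in leaf tip and 41.4% of the 3677 tested genes at such levels outside the tips. Of the 400, 377 (94.2%) had the SHA prefix, against 36.2% of all genes higher in shoot tip and 44.7% of the 3677. What the prefix stands for is not given. If it marks the tissue of assembly, genes found almost only in a tip carry its prefix largely by construction. The shares of the 117 and the 400 are then no result about the tips. The shares of the LA and SHA prefixes may then come in part from the same construction.

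Genes that the assembler placed in the same component, a group of contigs joined by shared sequence, mostly moved together where both were called. There were 1345 components with 2 or more tested genes, and 222 of them held a called gene. In 166 of these a lone gene was called, in 51 the called genes had the same direction and in 5 both directions occurred. With 2479 of all 3380 calls on the shoot tip side, some agreement comes without any link, and how much was not tested. Reads shared between such close copies make single values uncertain. With TPM summed per component, 870 of 32705 components were higher in leaf tip and 2372 higher in shoot tip.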

How the data were processed

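The authors deposited 1 table of TPM values for 15 libraries. Tools listed in the submitters' processing notes are RSEM 1.3.2, Bowtie2 2.3.4.3 and Trim Galore 0.5.0. Settings, the assembly steps and a genome build are not given in the sources used here. Each library's TPM has a fixed total, which leaves depth unknown, and counting error could not be given. Columns were joined to samples by their descriptions. The leaf columns match the leaf group only, so leaf libraries carry no replicate number.

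For the 6 tip libraries, limma 3.58.1 (R 4.3.3) was fitted to log2(TPM + 1) (empirical Bayes with an intensity trend, 1 mean per tissue, 4 residual degrees of freedom), and adjusted p-values run over all 33689 genes. The 9 other libraries were fitted separately in the same way (6 residual degrees of freedom). Numbers of genes detected per library were compared by an exact permutation test. The fits were tested on simulated data with known changes. These changes were placed only in genes above the low levels, so the simulation does not cover the low genes, where many shoot tip calls lay. Figures used matplotlib 3.10.9 in Python 3.11.15. Since identifiers have no names, 2 genes per direction are named, by the rule given with them. The comparison, its lists and its alternatives were chosen with earlier results of these data known. Alternatives were pseudocounts, filters, scalings, weights, the trend, wider fits, a test against 2-fold, component sums, the replicate number as a block, and each library left out.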

Additional observations from a re-analysis of the deposited data

How the results depend on the processing

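The 901 genes higher and 2479 lower in leaf tip (3380 in all) came to within 1.5 times these numbers under no filter, both other scalings, no intensity trend, quality weights, the fits of 15 and 14 libraries, component sums and each of the 6 libraries left out (911 to 958 higher, 2485 to 2522 lower). Replicate numbers did not pair the tips (correlation of same-numbered deviations -0.022 to -0.0074), and with a replicate block 903 and 2478 genes were called. A pseudocount of 5 gave 1293 calls (419 and 874), a mean of at least 5 TPM 1665 (625 and 1040), and the test against 2-fold 1892 (469 and 1423). A pseudocount of 0.1 gave 1383 higher genes. The same pseudocount together with the 5 TPM minimum, a setting added after seeing the data, gave 1881 calls, 1163 of them lower. Thus 24.8% to 38.2% of calls were higher in leaf tip under these settings, and 887 higher and 2023 lower were shared by all 3 scalings. A pseudocount of 5 in the 9 other libraries gave 5561 calls for leaf against root, 6800 for leaf against root tip and 5679 for root tip against root. Over all alternatives, genes higher in leaf tip were higher in leaf than root for 52.6% to 80.9%, with 13.0% of all tested genes at both ends. They were higher in leaf than root tip for 48.4% to 74.2%, with 9.82% of all tested at both ends. Genes lower in leaf tip were lower in leaf than root for 34.7% to 53.0%, where 8.13% and 19.8% of all tested were. They were lower in leaf than root tip for 33.2% to 48.7%, where 13.5% and 23.3% of all tested were. Over the settings, the last of these shares of all tested genes ran from 12.1% to 30.2%. Leaving out each of the 9 libraries was also added after seeing the data, except for root replicate 3. LE_TRINITY_DN17701_c3_g1 fell short of 2-fold, or of passing the test against 2-fold, under 8 settings. The minimum of 5 TPM left fewer genes to test (20269), and a pseudocount of 5 shrinks the log2 differences of low genes. All calls between the tips under that pseudocount, and under the test against 2-fold, were among the 3380. Other causes of these shifts were not tested. Depth is unknown, so low genes may have missed a call for lack of reads or of a difference.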
